A study of Mus musculus with 165 samples.

Results

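The stretch of neutrophil differentiation between 12h and 48h after activation of PU.1 was followed in 6 RNA-Seq libraries of PUER cells, chosen by their labels as the libraries of GCSF-treated cells at 12h (3 libraries) and at 48h (3 libraries). They are 2 of the 56 groups of condition and time in the series, which hold 2 or 3 libraries each. PUER cells are a mouse myeloid progenitor line without endogenous PU.1. They carry a fusion of PU.1 with the part of the estrogen receptor that binds ligand, which 4-hydroxytamoxifen (OHT) activates. Both groups spent 48h with granulocyte colony stimulating factor (GCSF) at 10 ng/ml in place of IL3 and then received 100 nM OHT in the same cytokine (GCSF-OHT). Cells kept in 5 ng/ml IL3 and given 200 nM OHT, without GCSF pre-treatment (IL3-OHT), were used for comparison at the same times. All cells belong to 1 line, each time point was grown in a plate of its own, and p-values therefore measure the spread between wells. Handling also changed inside the interval. Cells of all time points after 24h were detached with trypsin, and part of the medium was replaced with medium holding fresh OHT at 40h, so that time, detachment, medium renewal and plate cannot be told apart in the contrast of 48h with 12h.

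The 6 libraries held 22605614 to 28258968 reads on genes, and a count of 3 reads, the smallest taken to differ from 0, stood for a normalized count of 2.19 to 2.67. The 10 most abundant genes took 6.24% to 6.47% of the reads at 12h and 8.02% to 8.23% at 48h, and mitochondrial genes took 1.58% to 1.70% and 2.02% to 2.29%. Replicate 3 of 12h stood somewhat apart, with a chi-square per gene of 16.1 and 17.1 against its fellow replicates, compared with 4.40 to 7.76 for the other pairs of the 2 groups. Granulocyte markers were present at both times, though Ltf, lactoferrin, had only 5.29 to 10.7 normalized counts at 12h. Elane, neutrophil elastase, had a median normalized count of 100464 at 12h and 115161 at 48h, and Csf3r, the GCSF receptor, of 6115 and 8519. Mpo, Gfi1, Ltf, Lcn2, S100a8 and S100a9 also had higher medians at 48h. The medians of Prtn3, Ctsg, Camp and Cebpe were lower at 48h. Markers of monocytes and macrophages differed among themselves. C1qa and C1qb, subunits of complement C1q, had no read in any of the 6 libraries, and Csf1r, the M-CSF receptor, had at most 56.3 normalized counts, whereas Ly6c2, a surface protein of monocytes that granulocyte precursors also carry, had medians of 20429 and 14772, Cx3cr1, the fractalkine receptor, of 4315 and 3714, and Adgre1, the macrophage antigen F4/80, of 175.3 and 394.5.

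Neutrophils arise from promyelocytes, which build the primary granules with myeloperoxidase and the serine proteases, and pass through stages that make secondary and tertiary granule proteins such as lactoferrin and the gelatinases. Receptors for chemoattractants and the paired immune receptors appear on the maturing cells, while proliferation normally ceases. PU.1 binds purine-rich DNA around a GGAA core and, with C/EBP factors and Gfi1, sets the balance between the granulocyte and macrophage fates. GCSF acts through its receptor on STAT proteins.

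Of 17414 genes tested, 403 were higher at 48h than at 12h (2.31%) and 385 were lower (2.21%) when differentially expressed genes (DEGs) were taken at an adjusted p of limma below 0.05 and a log2 fold change beyond 0.58 in either direction, on the scale of log2(normalized count + 1). The median log2 fold change over all genes tested was 0.00. In bulk RNA, fewer cells of a type and less RNA per cell cannot be told apart. Abundant DEGs, with 100 or more normalized counts on average over the 6 libraries, made up 41.4% of those that rose and 57.7% of those that fell, and the change exceeded 2-fold in 56 and 37 of them. The early part of the interval held most of the genes that passed within one portion. Between 12h and 24h, 248 genes rose (1.42%) and 213 fell (1.22%). Between 24h and 32h, 27 rose (0.155%) and 3 fell (0.0172%), and 60 rose (0.345%) and 92 fell (0.528%) between 32h and 48h. Just before the interval, between 8h and 12h, 391 genes rose (2.25%) and 74 fell (0.425%). The number that fell by 24h was 112 without replicate 2 of 12h and 339 without replicate 3 of 12h. When only the groups compared were fitted, 9 rose in the portion that ended at 32h, 16 rose and 19 fell in that ending at 48h, and 112 rose and 48 fell between 8h and 12h.

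The median of the abundant rising genes had covered 61.9% of its log2 difference by 24h, with quartiles of 42.4% and 84.1%, and that of the 222 abundant falling genes 52.5%, with quartiles of 29.4% and 75.1%. These genes were chosen by their 12h and 48h values, so the shares describe them and test nothing. Each group was a mixture of courses. Of the rising genes, 33 moved upward at each of the 6 steps between 12h and 48h, and the largest step ended at 20h in 45 genes and at 32h in 46. Of the falling genes, 31 moved downward at each step, and the largest step ended at 20h in 49 genes and at 40h in 46. Of the rising and falling genes, 48.5% and 63.5% passed the thresholds in that direction in no single portion of the interval and did so only over its whole length.

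Granule genes that passed the thresholds mostly rose, and most members of both granule classes did not pass. Of 22 secondary and tertiary granule genes tested, 8 rose and 1 fell (2.31% and 2.21% of all genes), with a median log2 fold change of 0.16 over the list and 13 members that did not pass. Chil3, a chitinase-like protein made in quantity by maturing neutrophils, lies on chromosome 3 at 106147554 to 106167564 (GRCm38, minus strand). At 12h Chil3 had 12393, 11346 and 12331 normalized counts and it had 69542, 72754 and 71163 at 48h. The groups were far apart, and the mean was 5.92-fold higher at 48h (log2 fold change 2.57 ± 0.08, SE, limma adjusted p = 1.14e-53). The increase in Chil3 was gradual, with 34725, 36033 and 36654 at 24h and 52619, 53808 and 54997 at 32h.

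The other members that rose most differed in abundance. Mmp9, gelatinase B of the tertiary granules, rose from 60.1, 59.1 and 87.3 to 859, 649 and 903 (log2 fold change 3.54 ± 0.20, limma adjusted p = 1.02e-31). Mmp8, neutrophil collagenase, rose from 16.5, 6.17 and 7.13 to 107, 101.6 and 84.8 (log2 fold change 3.29 ± 0.24). Ltf, lactoferrin, rose from 9.88, 5.29 and 10.7 to 62, 40.3 and 66.5 (log2 fold change 2.59 ± 0.30). None of these 3 genes had overlapping groups, yet Mmp8 and Ltf remained low beside Lcn2, the siderophore-binding lipocalin, which rose from 22447, 21638 and 22407 to 47540, 49432 and 47278 (log2 fold change 1.12 ± 0.08). Lyz2, lysozyme M, the gene of the list with the highest mean count, rose 1.68-fold from a mean of 352481 to 590703. Fcnb, a ficolin, was the member that fell (log2 fold change -0.86 ± 0.15).

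Of 13 primary granule genes, 4 rose and 1 fell, against 2.31% and 2.21% of all genes, with a median log2 fold change of 0.23. Mpo, myeloperoxidase, had 13848, 15268 and 14287 normalized counts at 12h and 37910, 31498 and 40030 at 48h (log2 fold change 1.33 ± 0.10, limma adjusted p = 4.49e-21). The rise in Mpo came late, as the counts at 24h were 15115, 16161 and 15970, and the difference between 32h and 48h passed the thresholds (log2 fold change 0.82, limma adjusted p = 2.5e-09). Ctsc, the protease that activates the granule serine proteases, rose early instead, from a mean of 190.99 at 12h to 366 at 24h and 445 at 48h. Elane, with 100464, 104053 and 94927 at 12h and 114946, 121193 and 115161 at 48h, stayed under the fold threshold (log2 fold change 0.23 ± 0.07), as did Prtn3, proteinase 3 (-0.17 ± 0.07). Nkg7 and Ms4a3 made up the 4 that rose, and both were lost as DEGs when replicate 1 of 48h was left out, at log2 fold changes of 0.85 and 0.56. Srgn, the proteoglycan serglycin, was the member that fell (log2 fold change -0.58 ± 0.05), and 0 members fell without replicate 1 of 48h. Of 16 S100 proteins and annexins, 2 rose and 1 fell, against 2.31% and 2.21% of all genes. The median log2 fold change of that list was -0.14, and 10 members were below 0. S100a8 and S100a9, the subunits of calprotectin, rose by 0.72 ± 0.09 and 0.93 ± 0.07 on the log2 scale from means of 79191 and 92535. Anxa5, an annexin, was the member that fell.

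**Figure D1:**
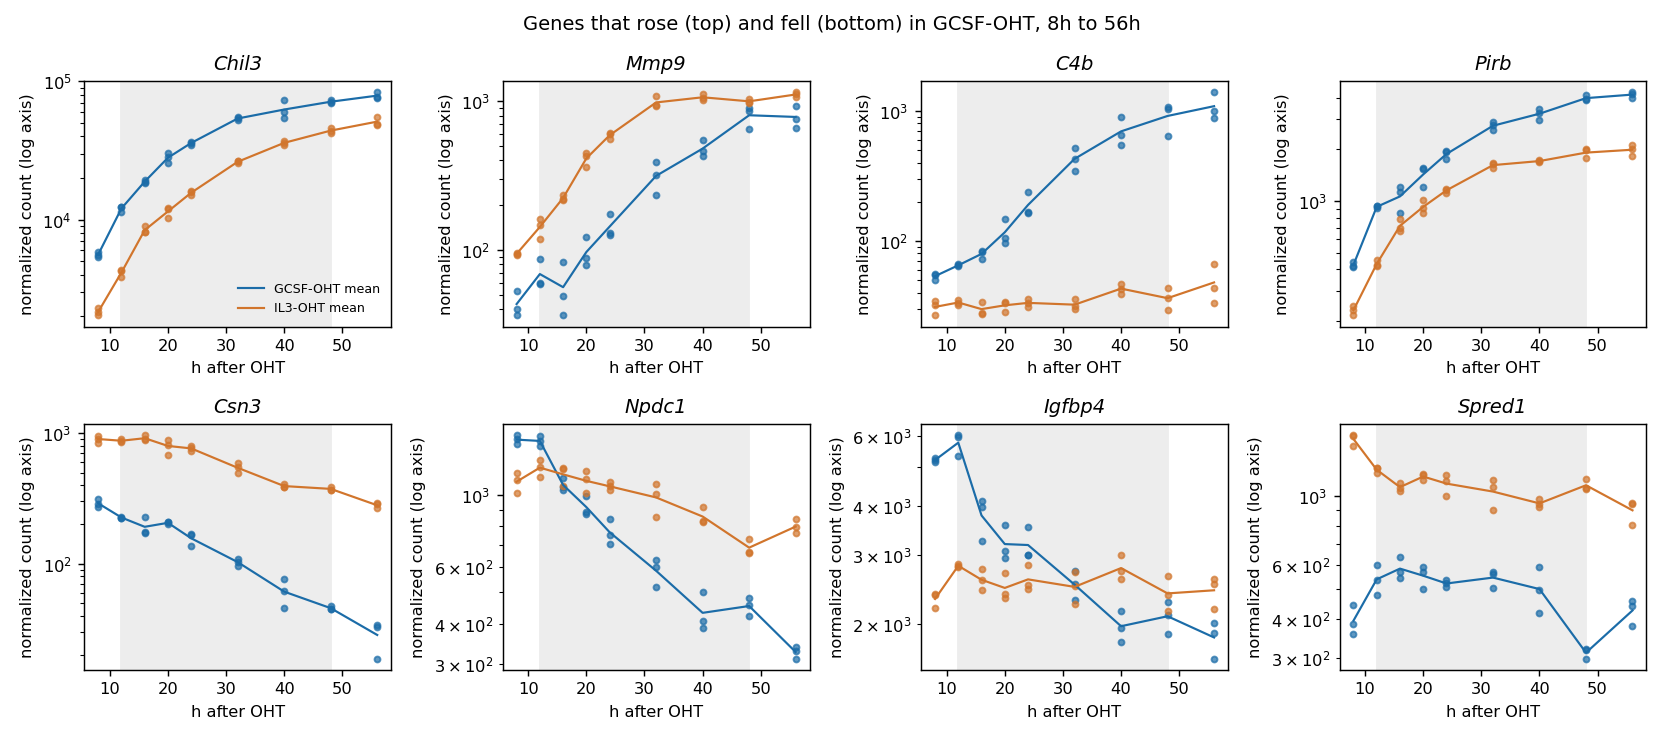
Normalized counts (log axis) of 4 genes that rose and 4 that fell from 12h to 48h in GCSF-OHT, against h after OHT, with 1 point per library, lines through the means and the 12h to 48h interval shaded. Chil3, Mmp9, C4b and Pirb climbed over several time points, C4b in GCSF-OHT but with an IL3-OHT log2 fold change of 0.09, while Spred1 stayed near its 12h level until 32h.

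Of 14 chemoattractant receptors, 6 rose and 0 fell, against 2.31% and 2.21% of all genes, with a median log2 fold change of 0.35. Fpr1, a receptor for formylated bacterial peptides, had 7.41, 8.82 and 17.8 normalized counts at 12h and 149.6, 128.5 and 152.0 at 48h (log2 fold change 3.64 ± 0.40, limma adjusted p = 3.02e-13). Cxcr2, the receptor for neutrophil-attracting chemokines, rose from 370, 401 and 262 to 925, 1103 and 923 (log2 fold change 1.53 ± 0.09). Fpr2, a further formyl peptide receptor, rose by 1.71 ± 0.48 on the log2 scale. Cxcr4, the marrow retention receptor and the member of highest mean count, had means of 5178 and 5540 (log2 fold change 0.10 ± 0.04). Of 17 leukocyte integrins and adhesion molecules, 0 passed the thresholds in limma, edgeR or DESeq2, with a median of -0.01, and 1 was higher without replicate 3 of 48h. The unadjusted limma p was below 0.05 in 8 of them, and in 2651 rising and 2619 falling genes among all 17414 tested.

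Of 21 Fc and inhibitory receptors, 6 rose, 0 fell and 15 did not pass (2.31% and 2.21% of all genes rose and fell), with a median of 0.21. The list leaves out Fcgrt, the neonatal Fc receptor, which was among the 15 largest falls. Pirb, an inhibitory paired immunoglobulin-like receptor, rose from 934, 934 and 904 to 4124, 3884 and 3915 (log2 fold change 2.10 ± 0.14, limma adjusted p = 1.53e-25). Its activating relative Pira2 rose from 14.8, 24.7 and 9.80 to 200.0, 209.9 and 205.4 (log2 fold change 3.65 ± 0.36). The 2 genes belong to a family of similar sequences, and reads shared between relatives may have been split by the quantification. The C-type lectins Clec4a2, Clec12a and Clec4a1 and a CD300 receptor also rose. Clec4a2 rose from a mean of 113 to 818, Clec12a from 201.2 to 979 and Clec4a1, which was named by its size and is outside the list, from 39.7 to 208.8. Cd300ld rose from 57.6, 68.8 and 65.1 to 324, 282 and 358 (log2 fold change 2.31 ± 0.17). Siglece, an inhibitory receptor for sialic acids, rose from a mean of 38.6 to 190.1, and Ptprc, the leukocyte common antigen CD45, from 119.6 to 983.

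Promoter sequences from RefSeq (GRCm38.p6, the 250 bases before the annotated start) were found for 12 of the 15 genes with the largest rise. The motif GAGGAAGT, a form of the purine-rich sequence that PU.1 binds, was searched on both strands. The motif occurred in 2 of these 12, Pira2 and Cd300ld, compared with 2.99% of the 11654 genes tested that had a promoter. Over single promoters, it occurred in 2.44% of 32851. It was in 0 of the 13 promoters found for the 15 genes with the largest fall. Both stretches are given to show where the letters, in capitals, stand in the promoters of genes that rose. A match describes the sequence and does not show binding. In Pira2 the motif begins 148 bases before the start (chr7:3845156-3845235, minus strand) and in Cd300ld 143 bases before it (chr11:114989986-114990065, minus strand).
Pira2: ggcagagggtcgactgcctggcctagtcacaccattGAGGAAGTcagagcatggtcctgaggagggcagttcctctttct
Cd300ld: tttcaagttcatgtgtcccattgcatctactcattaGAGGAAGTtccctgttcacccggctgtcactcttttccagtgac

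The genes with the 15 largest rises also held C4b, Saa3, C1rl and Lyz1. C4b, complement component C4, lies on chromosome 17 at 34728380 to 34743882 (minus strand). C4b had 65, 63.5 and 65.9 normalized counts at 12h and 1024, 642 and 1072 at 48h (log2 fold change 3.76 ± 0.22, limma adjusted p = 3e-30). Saa3, a serum amyloid A protein of myeloid cells, rose from 335, 303 and 274 to 2809, 2526 and 2928 (log2 fold change 3.18 ± 0.15, limma adjusted p = 3.47e-37). Both C4b and Saa3 passed the thresholds in each portion of the interval. C1rl, a relative of the complement protease C1r, rose from a mean of 41.1 to 225, and Lyz1, lysozyme P, from 39.8 to 271. Lyz1 and Lyz2 are near copies, so part of the Lyz1 count may come from the far more abundant Lyz2 transcript.

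The named gene with the largest rise among abundant DEGs was Fosb, a member of the Fos family of transcription factors that cells induce within minutes of a stimulus. Fosb lies on chromosome 7 at 19302696 to 19310051 (minus strand). At 12h Fosb had 43.6, 54.7 and 47.2 normalized counts and it had 876, 1126 and 718 at 48h (log2 fold change 4.18 ± 0.18, limma adjusted p = 1.92e-40). The course of Fosb differed from that of the granule and receptor genes, in that it was still at 34, 26.9 and 42.3 by 24h and reached 1303, 1487 and 1004 at 32h. The step from 24h to 32h (log2 fold change 5.16, limma adjusted p = 5.18e-49) exceeded the whole difference between 12h and 48h.

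Of 28 immediate-early genes tested, 9 were higher at 32h than at 24h and 0 lower (0.155% and 0.0172% of all genes), with a median of 0.44. Before this step, between 12h and 24h, 0 were higher and 7 lower (1.42% and 1.22%), with a median of -0.29. Fos had means of 344 at 12h, 347 at 24h, 2221 at 32h and 1662 at 48h, a log2 fold change of 2.67 from 24h to 32h. Egr1, a zinc-finger factor induced by growth signals, had means of 94.8, 92.8, 1175 and 529 at these times and fell again from 32h to 48h (log2 fold change -1.19, limma adjusted p = 4.43e-07). The 56h libraries had 949, 1040 and 671 normalized counts of Egr1. Egr2 rose from a mean of 12.8 at 24h to 43.8 at 32h, and Ier2 from 1393 to 2864. Nr4a1, an orphan nuclear receptor, had means of 19.3, 29.8, 53.6 and 78.1 and passed the thresholds only over the whole interval. Over the whole interval 6 of the 28 were higher at 48h and 3 were lower (2.31% and 2.21% of all genes), with a median of -0.01. Those that fell were Dusp2 and Dusp4, phosphatases of MAP kinases, and Spred1, an inhibitor of Ras signalling, and the number lower was 1 when only the groups compared were fitted and 5 in edgeR with TMM. Spred1 had 599, 536 and 479 normalized counts at 12h and was still at 506, 561 and 569 by 32h. It had 589, 496 and 418 at 40h and 298, 320 and 317 at 48h (log2 fold change from 12h -0.78 ± 0.09). At 56h Spred1 was higher again, at 442, 457 and 381.

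The step between 24h and 32h was present in IL3-OHT as well. Fosb had 61.5, 67.4 and 54.2 normalized counts at 24h and 4976, 5608 and 4399 at 32h in that condition, Fos had 726, 709 and 578 and then 5907, 6140 and 5474, and Egr1 had 555, 725 and 607 and then 5201, 5830 and 5338. The groups at 24h and 32h did not overlap for any of these genes in either condition. The 32h plates are the earliest that fall under the detachment with trypsin named above, and the part of detachment in this step was not tested.

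**Figure D2:**
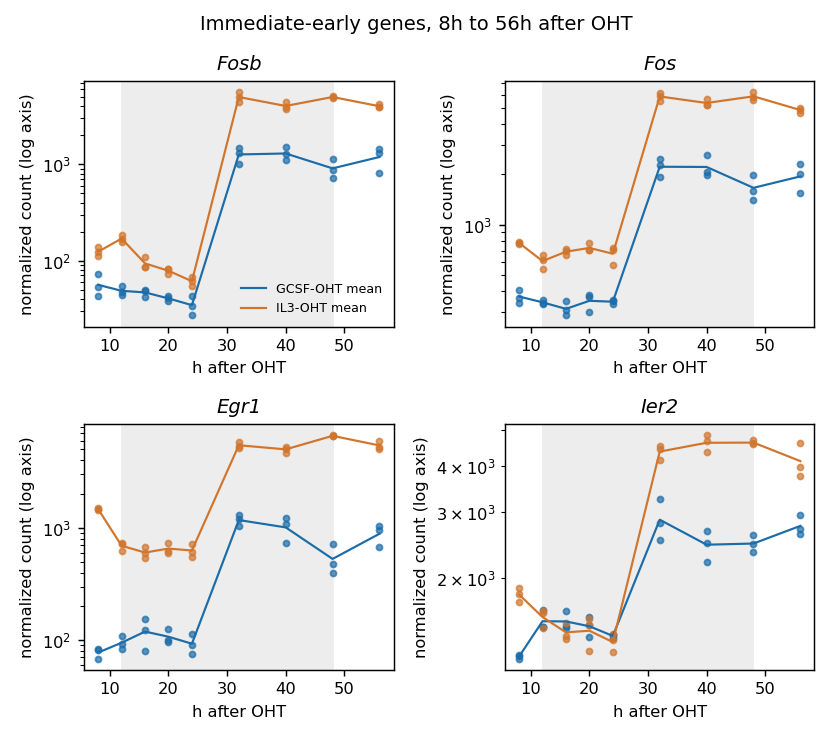
Normalized counts (log axis) of 4 immediate-early genes against h after OHT in GCSF-OHT and IL3-OHT, with 1 point per library, lines through the means and the 12h to 48h interval shaded. All 4 genes moved little between 12h and 24h beside their step up at 32h in both conditions, with Fosb going from a mean of 34.4 to 1265 in GCSF-OHT.

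Of 32 interferon-stimulated genes tested, 16 were higher at 48h and 0 lower (2.31% and 2.21% of all genes), with a median log2 fold change of 0.97. Of the 32, 21 had a mean of at least 20 normalized counts over the 6 libraries. In 7 of the 16 the mean at 48h was under 20 normalized counts, and over the 14 members with a mean of at least 100 the median was 0.31. Irf7, a transcription factor that drives interferon genes and is itself induced by interferon, had 74.9, 79.4 and 84.7 normalized counts at 12h and 224, 203.96 and 181.3 at 48h (log2 fold change 1.34 ± 0.25, limma adjusted p = 9.46e-06). Zbp1, a sensor of left-handed nucleic acids, rose from 58.4, 56.4 and 63.3 to 179.8, 138.2 and 134.5 (log2 fold change 1.32 ± 0.21). Xaf1, an antagonist of inhibitor of apoptosis proteins, rose from 32.1, 35.3 and 46.3 to 129.4, 124.0 and 90.6 (log2 fold change 1.57 ± 0.29). Ifit1 and Ifit3, which bind viral RNA and its complexes, had means of 24.2 and 12.4 at 12h and 82.8 and 45.7 at 48h (limma adjusted p = 0.0191 and 0.00235), and neither was a DEG when replicate 2 of 12h was left out, at log2 fold changes of 1.60 and 1.49 (limma adjusted p = 0.0735 and 0.0544), nor was Ifit1 without replicate 1 of 48h, at 1.47 (limma adjusted p = 0.0979). Replicates within a time differed for these genes, with 35, 22.6 and 122.1 normalized counts of Ifit1 at 32h. The count of 16 became 9 when only genes with a mean of at least 10 over all libraries were tested, which left 21 of the list.

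The interferon-stimulated response element, the sequence through which STAT and IRF factors act on these genes, was searched as TTTCNNTTTC on both strands in the same 250 bases, and occurred in 2.98% of 32851 promoters. RefSeq promoters were found for 12 of the 16 members that rose, less than the 80% set as needed, so no share is given for the list. The promoters of Ifit1 (chr19:34640749-34640849, plus strand) and Isg15 (chr4:156200839-156200932, minus strand), a ubiquitin-like protein that rose by 1.58 ± 0.42, are given to show the element in genes of the list. Capitals mark the matches, 2 in Ifit1 and 3 that overlap in Isg15, where they lie on the strand opposite to the gene.
Ifit1: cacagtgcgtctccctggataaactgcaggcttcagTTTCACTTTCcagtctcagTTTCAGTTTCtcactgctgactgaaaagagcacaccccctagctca
Isg15: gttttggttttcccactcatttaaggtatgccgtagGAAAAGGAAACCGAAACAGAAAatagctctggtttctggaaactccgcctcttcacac

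Mitosis genes lay higher at 48h, most of them by less than the fold threshold. All 3 libraries at 48h were above all 3 at 12h in 47 of 47 mitosis genes, compared with 18% of all genes tested. The log2 fold changes of the list ran from 0.10 (Cdc25b) to 0.77 (Mki67) with a median of 0.48, and 10 of the 47 passed the DEG thresholds and 37 did not (2.31% of all genes rose). Mki67, the proliferation antigen Ki-67, rose from a mean of 7744 to 13189, Top2a, DNA topoisomerase II alpha, from 6295 to 9811, and Spc25, a kinetochore protein, from 344 to 566 (log2 fold change 0.72). As the mean over the list on the log2 scale, relative to 12h, the 3 libraries at 24h were at 0.29, 0.33 and 0.39, those at 32h at 0.51, 0.57 and 0.59 and those at 48h at 0.49, 0.42 and 0.51. The list was at its higher level by 32h, and the libraries at 8h, at 0.21, 0.20 and 0.23, were also above those at 12h. Of 48 DNA replication genes, 3 rose and 0 fell, with a median of 0.15. Those 3 were E2f2, a transcription factor of S phase, Rrm2, a subunit of ribonucleotide reductase, and Tyms, thymidylate synthase, the last at 0.58 and no longer a DEG with replicate 1 of 48h, replicate 3 of 48h or replicate 2 of 12h left out.

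Cytosolic ribosomal protein genes lay lower by a small amount. All 3 libraries at 48h were below all 3 at 12h in 41 of 58 genes, compared with 16.4% of all genes tested, with a median log2 fold change of -0.18 and 1 DEG, Rps14 (-0.60). Of 43 genes for lysosomal hydrolases and the proton pump, 27 had all libraries at 48h below those at 12h, with a median of -0.22 and 1 DEG, Gpnmb, a glycoprotein of phagocyte lysosomes (-0.999 ± 0.09). Of 48 nuclear genes of the respiratory chain, 0 were DEGs in limma, edgeR or DESeq2 and 19 had an unadjusted limma p below 0.05 (median 0.07). Over all 17414 genes tested, 2.31% rose and 2.21% fell as DEGs. At an unadjusted limma p below 0.05, 2651 of all genes rose and 2619 fell. The signs of the medians for mitosis, ribosomal and lysosomal genes were the same under upper-quartile, TMM and DESeq2 scaling. 

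**Figure D3:**
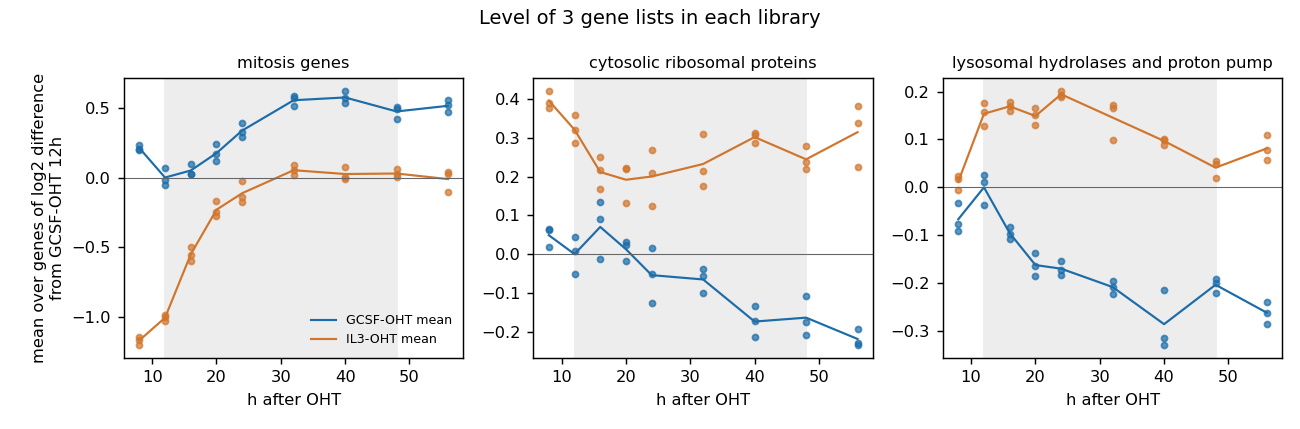
Mean over the genes of a list of the log2 difference from the GCSF-OHT 12h mean, against h after OHT, with 1 point per library, lines through the means of each time and the 12h to 48h interval shaded. The mitosis list lay between 0.42 and 0.51 at 48h in GCSF-OHT, where the ribosomal list lay between -0.21 and -0.11 and the lysosomal list between -0.22 and -0.19.

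Transcription factors of the granulocyte program were nearly level. Of 18 tested, 0 passed the thresholds in limma, edgeR or DESeq2 (2.31% and 2.21% of all genes rose and fell). The unadjusted limma p was below 0.05 in 6, as it was in 2651 rising and 2619 falling genes among all 17414. Log2 fold changes ran from -0.23 (Cebpd) to 0.32 (Ets1), with a median of 0.02. Spi1, which encodes PU.1, had 9534, 10188 and 10558 normalized counts at 12h and 9226, 9007 and 9358 at 48h (log2 fold change -0.13 ± 0.05, limma adjusted p = 0.0358). The line carries PU.1 as an introduced fusion, so the Spi1 counts cannot be taken as the level of the endogenous gene. OHT acts on the fusion protein, which RNA does not measure. Gfi1, the repressor that favours granulocytes, had 5232, 5496 and 5503 at 12h and 5892, 5640 and 6138 at 48h (0.12 ± 0.06). Cebpa had means of 24228 and 20788 (-0.22 ± 0.13) and Cebpe, the factor of secondary granule genes, of 2342 and 2201 (-0.09 ± 0.10). Myc had means of 2889 and 3087 (0.09 ± 0.07). Csf3r, with 6115, 6107 and 6311 at 12h and 8863, 8262 and 8519 at 48h, had separate groups at a log2 fold change of 0.47 ± 0.06 (limma adjusted p = 1.95e-09), under the fold threshold. Of 17 macrophage factors, Egr1, Egr2 and Nr4a1 rose, all 3 also members of the immediate-early list, and Nr1h3, the oxysterol receptor LXR alpha, fell (log2 fold change -0.98 ± 0.09).

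Monocyte and macrophage markers went both ways, with 5 of 27 higher, 5 lower (2.31% and 2.21% of all genes) and a median of -0.18. The number lower was 3 without replicate 2 of 12h and 6 without replicate 3 of 12h. Msr1, a scavenger receptor, rose from 0, 4.41 and 1.78 normalized counts to 65.1, 70.2 and 53.4, from at most 5 reads a library, and Clec4n, the lectin Dectin-2, from a mean of 64.9 to 297. Ccr2, the monocyte chemokine receptor, rose from 1202, 1099 and 1315 to 2788, 2535 and 3017 (log2 fold change 1.205 ± 0.15). Adgre1 rose from 175.3, 155.2 and 187.1 to 394.5, 280.9 and 472.2 (log2 fold change 1.12 ± 0.25). Mrc1, the mannose receptor, fell from 13.2, 13.2 and 14.3 to 1.55, 4.48 and 2.19. Cd14, the endotoxin co-receptor, fell from a mean of 5775 to 3833 (log2 fold change -0.59 ± 0.06), with a mean of 3570 already at 24h, and without replicate 2 of 12h it was under the fold threshold at -0.56. Ly6c2 and Slpi, the members with the highest mean counts, had log2 fold changes of -0.45 each. Csf1r rose from a mean of 12.9 to 39.05 and was not a DEG without replicate 3 of 48h, at a log2 fold change of 1.19 (limma adjusted p = 0.0794).

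**Figure D4:**
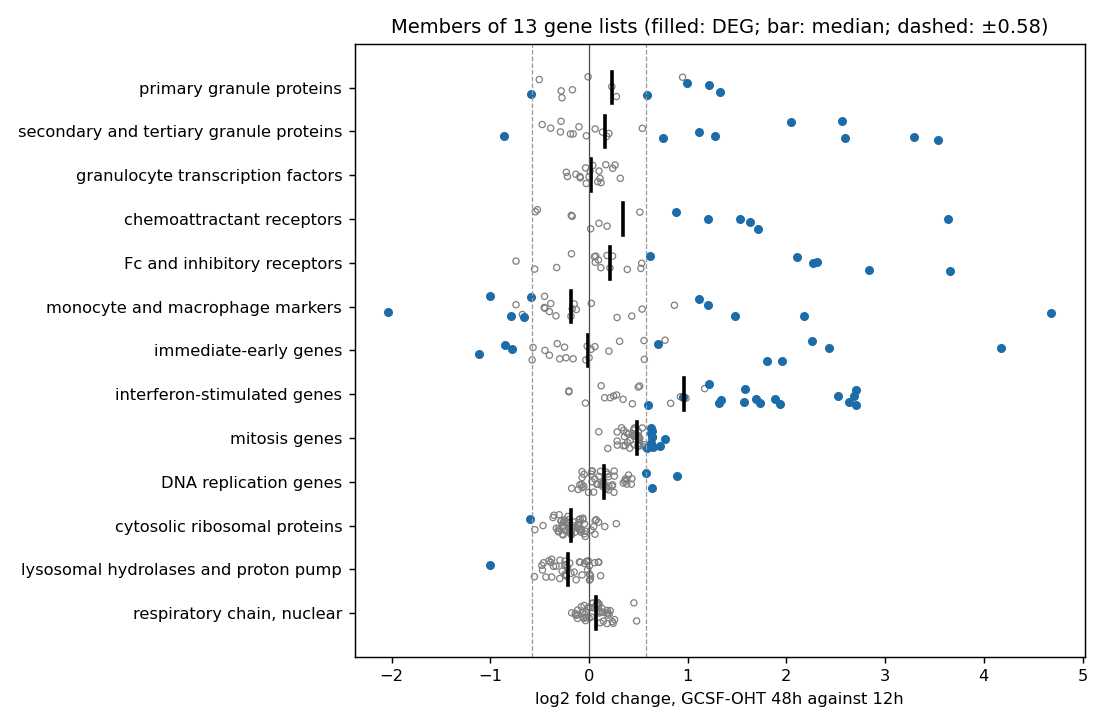
Log2 fold changes of the members of 13 gene lists for GCSF-OHT 48h against 12h, with DEGs filled, other members open, a bar at each median and dashed lines at the fold threshold of 0.58. The 18 granulocyte transcription factors lie between -0.23 and 0.32. The secondary and tertiary granule, chemoattractant receptor, Fc and inhibitory receptor, monocyte and macrophage marker and immediate-early lists hold members above 2.

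Among abundant DEGs the largest rise was 4.63 on the log2 scale, in the predicted gene Gm14548, which was singled out after its value was seen. The largest fall was that of Csn3. Csn3, kappa-casein, a milk protein gene, fell from 226, 228 and 224 to 45, 47.1 and 44.6 (log2 fold change -2.29 ± 0.21, limma adjusted p = 2.08e-16). Csn2, beta-casein, another milk protein gene, fell from 24625, 23589 and 23479 to 11047, 12758 and 11184 (log2 fold change -1.04 ± 0.09). Igfbp4, which binds insulin-like growth factors, fell from 5336, 5959 and 6023 to 2117, 1890 and 2286 (log2 fold change -1.46 ± 0.09), and Npdc1, a neural differentiation gene, from 1418, 1531 and 1470 to 422, 480 and 458 (-1.70 ± 0.11). Both Igfbp4 and Npdc1 had passed the thresholds by 24h.

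Other falls came after 32h. St6gal1, the sialyltransferase that caps glycoproteins, had means of 183.5 at 12h, 124.8 at 24h, 124.6 at 32h and 52.9 at 48h. Tnfrsf9, the costimulatory receptor 4-1BB, had means of 374, 314, 267 and 135.8, Ctla2a, a cysteine protease inhibitor, of 453, 379, 343 and 157.7, and Serpinf1, pigment epithelium-derived factor, of 487, 420, 371 and 197.4. In each of these 4 genes the difference between 32h and 48h passed the thresholds and that between 12h and 24h did not. The medium was renewed at 40h, within that portion, and its part was not tested. The remaining genes among the 15 largest falls were Shank3, Pald1, Ptprn, Ces2e, Fcgrt (the neonatal Fc receptor), Wnt10b (a Wnt ligand), Pitx1 (a homeobox factor) and Nwd1, with log2 fold changes from -1.58 (Shank3) to -1.23 (Nwd1). Among secreted factors, Spp1, osteopontin, fell from 30754, 29301 and 28528 to 13732, 18218 and 14789 (log2 fold change -0.93 ± 0.09), whereas Tnf rose from a mean of 126.9 to 292.

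Markers of other blood lineages differed in abundance. Of the genes in the table, 9 of 12 erythroid, 10 of 15 lymphoid and 7 of 10 eosinophil markers had 3 reads or fewer in each of the 6 libraries, and Rag1, a lymphoid recombinase, had none. The summed eosinophil markers were at 0.88 to 5.35 normalized counts at 12h and 9.50 to 10.5 at 48h. Among the 6 eosinophil markers tested, 1 rose and 0 fell (2.31% and 2.21% of all genes), with a mean under 20 normalized counts at 48h. Of the mast cell and basophil list, 8 of 15 had 3 reads or fewer. The sum of the list was 3886 to 4381 at 12h and 3507 to 3712 at 48h. Kit, also a progenitor marker, was its most abundant member, and Fcer1a, Cma1, Tpsb2 and Prss34 had no read. Among the 7 members tested, 1 rose and 0 fell (2.31% and 2.21% of all genes). That DEG was Hdc, histidine decarboxylase, which rose from a mean of 315.1 to 503.2. Hdc was not a DEG when only the groups compared were fitted, nor without replicate 1 or 3 of 48h or replicate 1 or 2 of 12h. Of 10 megakaryocyte markers, 4 had 3 reads or fewer, and the sum was 823.4 to 974.3 at 12h and 512.4 to 726.2 at 48h. Among the 7 megakaryocyte markers tested, 0 rose and 2 fell (2.31% and 2.21% of all genes). Treml1, a receptor of platelet granules, fell from a mean of 111.46 to 55.8, and Vwf, von Willebrand factor, from 597 to 398.5. Vwf was not a DEG when only the groups compared were fitted, nor without replicate 1 or 3 of 48h or replicate 2 of 12h. Of 12 dendritic cell markers, 6 had 3 reads or fewer, and the sum was 46.9 to 59.95 at 12h and 55.6 to 63.6 at 48h.

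In IL3-OHT over the same hours, 1195 genes rose (6.86%) and 420 fell (2.41%). The libraries of this condition are separate from those of GCSF-OHT. Of the 403 genes that rose in GCSF-OHT, 213 also rose in IL3-OHT, which is 52.9% of the GCSF-OHT genes and 17.8% of the IL3-OHT genes, and 2 fell there. Of the 385 that fell, 90 also fell, which is 23.4% and 21.4% of the 2 groups, and 10 rose. The interaction of condition with time, the test of whether the change differs between conditions, was positive in 1.13% of genes and negative in 570 (3.27%). It covers cytokine, OHT concentration and pre-treatment together, which cannot be told apart.

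The interaction was positive for C4b (3.67 ± 0.31, limma adjusted p = 1e-18), which had 33.5, 32.1 and 35 normalized counts at 12h and 29.2, 43.4 and 36.1 at 48h in IL3-OHT. It was also positive for Saa3 (2.52 ± 0.21), with IL3-OHT means of 78.5 and 124.8, and for Msr1 (4.37 ± 0.51), which was already at a mean of 246 at 12h in IL3-OHT and at 305 at 48h, so that the rise in GCSF-OHT left it below the IL3-OHT level. For Slfn1, a Schlafen gene, Cd300ld and Dock4 the GCSF-OHT change exceeded that in IL3-OHT by 1.77, 1.68 and 1.64 on the log2 scale. Serpinb9e, a granzyme inhibitor relative, and Ifi207, a nucleic acid sensor of the interferon-inducible family, rose in GCSF-OHT and fell in IL3-OHT. The interaction was negative for Csn2 (-1.64 ± 0.12), which fell in GCSF-OHT and rose in IL3-OHT from a mean of 74923 to 113571, and for F2rl2, a protease-activated receptor, and Mmp13, collagenase 3, with the same pair of directions. Ccl6, a chemokine of myeloid cells, had means of 1620 and 2379 in GCSF-OHT and of 4460 and 21469 in IL3-OHT (interaction -1.71 ± 0.10).

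In IL3-OHT 44 of 47 mitosis genes rose (6.86% of all genes), with a median of 1.07, and the interaction was negative in 21 and positive in 0 (3.27% and 1.13% of all genes), with a median of -0.56. The mean over the list relative to GCSF-OHT 12h ran from -1.03 to -0.99 in the IL3-OHT libraries at 12h and from 0.00 to 0.06 at 48h, so at 48h they were below those of GCSF-OHT. Of 13 primary granule genes, the interaction was negative in 6 and positive in 1, with a median of -0.53. The interaction was positive in 7 of 32 interferon-stimulated genes and negative in 2, with a median of 0.91, and 4 of the list rose in IL3-OHT. The 6 immediate-early genes that rose in GCSF-OHT also rose in IL3-OHT, and the interaction was negative for Fos (-1.02), Egr1 (-0.83) and Ier2 (-0.87). Mpo rose more in IL3-OHT (interaction -0.95 ± 0.15) from the lower mean of 2235, while for Ltf (-0.15 ± 0.43), Mmp8 (0.04 ± 0.34) and Pirb (-0.05 ± 0.20) the interaction did not pass the thresholds. The granulocyte factor Gfi1 rose in IL3-OHT from a mean of 2011 to 3138, and its interaction of -0.52 ± 0.08 was under the fold threshold.

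**Figure D5:**
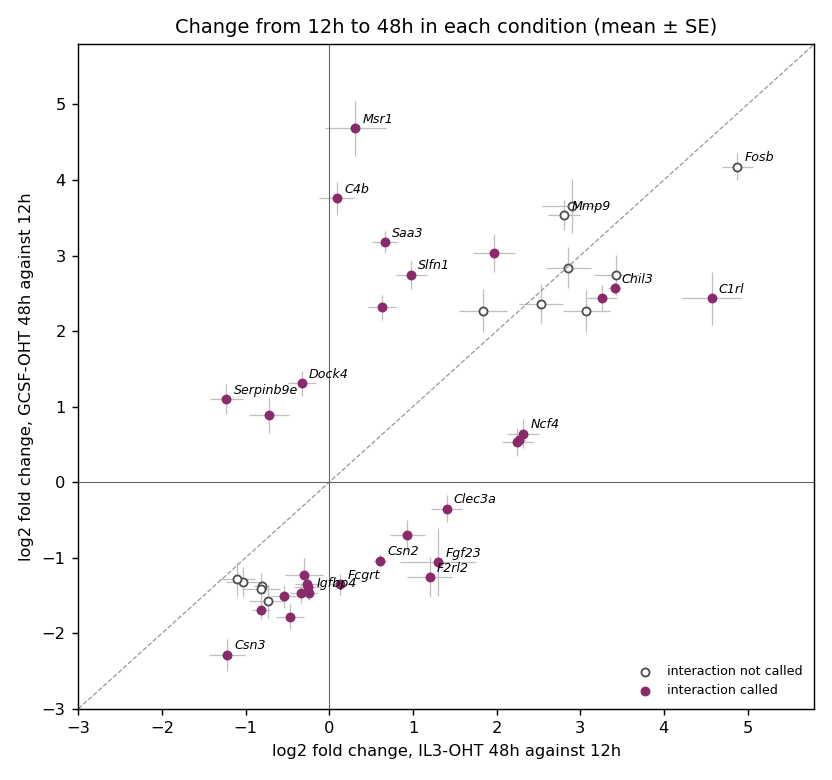
Log2 fold change from 12h to 48h in GCSF-OHT against that in IL3-OHT for the genes with the largest changes and the largest interactions, with bars for the SE of each axis, a dashed line of equal change, and filled points where the interaction was called. Msr1, C4b and Saa3 lie far above the line, Csn2, F2rl2 and Fgf23 below it with opposite signs in the 2 conditions, and Fosb and Mmp9 near it.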

How the data were processed

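RNA-Seq was quantified by the authors with Salmon against GRCm38 and scaled with the size factors of DESeq2, and the deposited signal is a normalized count per gene (36255 genes). Division by the smallest non-zero value of each library, taken as 1 read, gave whole reads for 100% of non-zero values (tolerance 1e-06). Groups came from the labels. The members, gene lists and tests were chosen with earlier results of these data known.

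Genes with at least 5 normalized counts in 1 or more libraries (17414) were tested with limma 3.58.1 in R 4.3.3 on log2(normalized count + 1), with 1 mean per condition and time, moderated with an intensity trend over all libraries but IL3-OHT 96h and 144h, and Benjamini-Hochberg adjustment over all genes. DEGs had an adjusted p below 0.05 and an absolute log2 change above 0.58. edgeR 4.0.16 and DESeq2 1.42.0 on the recovered reads, other pseudocounts, filters and scalings, and the omission of each replicate were alternatives. The fit was tested on simulated data. Genes named were the 15 largest rises and falls among DEGs with non-overlapping groups and a mean of at least 100 over the 6 libraries. The 8 largest interactions each way were also named, among genes whose interaction passed the thresholds with a mean of at least 100. That mean was taken over the GCSF-OHT and IL3-OHT libraries of 12h and 48h together. Predicted gene models, pseudogenes and mitochondrial genes were left out. Also named were, in each list, up to 4 DEGs with the largest change and a mean of at least 20 and the most abundant members, and Csf3r, Spi1, Gfi1, Cebpa, Cebpe, Egr1, Egr2, Myc, Mpo, Elane and Ltf. Gm14548 and further list members named beside these were chosen after their values were seen. Coordinates are from GENCODE on GRCm38 and promoters from RefSeq. Reads on genes numbered 22605614 to 28258968 per library, which limits the precision of genes with few reads.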

Additional observations from a re-analysis of the deposited data

Results flagged for a closer look

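The change between 12h and 48h differed between GCSF-OHT and IL3-OHT by the test of the interaction (limma, adjusted p below 0.05 and a difference beyond 0.58 on the log2 scale) in 16 named genes. The difference, GCSF-OHT change minus IL3-OHT change in log2 units, was 4.37 for Msr1, 3.67 for C4b, 2.52 for Saa3, 2.33 for Serpinb9e, 1.77 for Slfn1, 1.68 for Cd300ld, 1.64 for Dock4 and 1.61 for Ifi207. It was -2.46 for F2rl2, -2.36 for Fgf23, -1.75 for Clec3a, -1.72 for Clec7a, -1.71 for Ccl6, -1.68 for Ncf4, -1.64 for Csn2 and -1.64 for Mmp13. Msr1 at 12h and Fgf23 at 48h had at most 5 reads in a GCSF-OHT library, so their differences depend on the pseudocount. Msr1 met the minimum mean of 100 only through its IL3-OHT libraries. The conditions differ in cytokine, OHT concentration and pre-treatment, which cannot be told apart.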

How the results depend on the processing

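The counts of DEGs between 12h and 48h stayed within 1.5 times under every alternative run. With a replicate left out they ran from 340 to 393 higher and from 277 to 473 lower, and 572 to 665 of the 788 DEGs were kept. For 24h against 12h the counts reached 272 higher and ran from 112 to 339 lower, with the lowest without replicate 2 and the highest without replicate 3 of 12h. The ranges were 23 to 29 and 0 to 6 for 32h against 24h, 37 to 92 and 50 to 1.2e+02 (rounded) for 48h against 32h, 245 to 502 and 49 to 94 for 12h against 8h, 1031 to 1130 and 374 to 404 for IL3-OHT and 493 to 674 for negative interactions. Without a filter, 32h against 24h gave 43 higher and 12 lower. Fitting only the groups compared gave 9 higher for 32h against 24h, 16 higher and 19 lower for 48h against 32h, and 112 higher and 48 lower for 12h against 8h. DESeq2 gave 8 lower for 32h against 24h, 59 lower for 48h against 32h and 45 lower for 12h against 8h. The cause was not tested. All but 19 of the gene results kept their side of the thresholds in all alternatives run, and 0 reversed. Deviations of same-numbered libraries at 12h and 48h correlated at -0.18, 0.29 and 0.20, and those of differently numbered libraries at -0.40 to 0.32. Deviations within a group depend on each other, so these values cannot decide whether replicate numbers pair the libraries. With the replicate block 400 genes were higher and 384 lower at 48h.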
